A study of Homo sapiens with 6 samples.

Results

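Clusterin and 9 genes of the BCL2 family were followed through 3 pairs of prostate cancer cell lines, each a castration-sensitive parent and a castration-resistant line that carries its name. The 10 genes are CLU, BCL2, BCL2L1, MCL1, BAX, BAK1, BID, BAD, BIK and BCL2L11, of 47032 gene names in the tables. They were chosen for their known roles and because CLU had been seen to be higher in all 3 resistant lines. The difference between resistant and sensitive libraries is therefore described for these genes and not tested. Each of the 10 had a single entry, and 9 averaged 1 scaled FPKM or more across the 6 libraries and so passed the filter on low values. BCL2 did not pass.

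RNA was sequenced from LNCaP (written LnCaP in the labels) and LAPC4, grown in RPMI with 10% serum, and from VCaP, grown in DMEM with 10% serum. These 3 lines are labelled castration sensitive. Their resistant counterparts LNCaP-abl, VCaP-CR and LAPC4-CR grew in RPMI with 10% charcoal-stripped serum, which is depleted of steroids, and with B27, a supplement of hormones and antioxidants. No other treatment was given. Medium and state differed together in every pair and cannot be told apart. How the resistant lines were derived is not given in the sources used here. Each line is represented by 1 library, so a pair has no replicate.

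Clusterin is a secreted glycoprotein that binds unfolded proteins outside the cell, and it first drew attention in the prostate as a message that becomes abundant after castration. The BCL2 family decides whether the outer membrane of mitochondria is opened, the step that releases cytochrome c and starts caspase activation. Pro-survival members such as BCL2, BCL-XL (from BCL2L1) and MCL1 hold back the pore-forming effectors BAX and BAK (from BAK1). BH3-only members such as BID, BAD, BIK and BIM (from BCL2L11) relay stress by binding to either side.

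Levels are given as scaled FPKM, the deposited fragments per kilobase of gene and per total count, divided by a factor per library, so that genes of different length can be set side by side. A change in a pair is the difference of log2(scaled FPKM + 1), resistant minus sensitive. In counts of genes, "at least 2-fold" means a change of 1 or more on this scale in either direction, which a gene at a low level can miss although its ratio passes 2. A ratio in a pair is resistant over sensitive scaled FPKM. Its 95% interval covers counting error only, not the variation between cultures. Total counts ran from 8661337 to 22433655 and the resistant library was the deeper one of each pair. Protein-coding genes took 62.8% to 68.3% of the counts in the sensitive libraries and 68.0% to 79.5% in the resistant ones, and were higher in the resistant library of each pair. The part of this shift in the results was not tested. Scaling on protein-coding genes alone moved the median change of all tested genes from -0.01 to -0.13 (LNCaP pair), from -0.01 to -0.02 (VCaP pair) and from 0.00 to -0.11 (LAPC4 pair).

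All 10 prostate epithelial markers examined had counts in every library, although 2 of them were low in single resistant lines. HOXB13, a prostate transcription factor, was at 1.64 scaled FPKM in LAPC4-CR and at 30.5 or more in the other 5 libraries. KLK3, which encodes prostate-specific antigen, was lower in all 3 resistant lines and was at 0.668 scaled FPKM in LNCaP-abl. Of 12 markers of fibroblasts, blood and endothelium, 11 were matched and 1 passed the filter. Their summed level was 3.55 to 6.83 scaled FPKM in the sensitive and 4.82 to 52.7 in the resistant libraries. LUM, which encodes the matrix protein lumican, made up most of the highest sum, at 49.8 scaled FPKM in VCaP-CR against 3.87 in VCaP. The part of these markers in the results was not tested.

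CLU was higher in all 3 resistant lines and was the only 1 of the 10 genes at least 2-fold higher in any pair. CLU (ENSG00000120885) lies on chromosome 8, 27510351 to 27528465 in hg18, the build named in the submitters' processing notes. It was at 1.43 scaled FPKM in LNCaP, 8.53 in VCaP and 4.62 in LAPC4. In the resistant lines it was at 37.6 scaled FPKM in LNCaP-abl, 22.3 in VCaP-CR and 39.9 in LAPC4-CR. The sensitive and resistant libraries did not overlap. The means were 4.86 ± 3.55 (SD, n = 3 sensitive lines) and 33.2 ± 9.56 scaled FPKM (SD, n = 3 resistant lines).

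The CLU ratio was 26.2 in the LNCaP pair (95% counting interval 21.2 to 32.7), 8.63 in the LAPC4 pair (7.80 to 9.56) and 2.61 in the VCaP pair (2.38 to 2.87). The 3 counting intervals did not overlap each other. The order followed the parents in reverse: the pair with the lowest parental level, LNCaP, had the largest ratio and the pair with the highest, VCaP, the smallest. The parental level is itself the denominator of the ratio. The lowest count behind these values was 89 in LNCaP (95% Poisson interval 71.5 to 109.5) and the highest 6385 in LAPC4-CR. On the log2 scale the mean change was 2.71 ± 1.35 (SD, n = 3 pairs). Ranked among the 17431 tested genes, the CLU change was number 33 from the top for LNCaP, number 32 for LAPC4 and number 228 for VCaP. The edgeR estimate over the pairs, fitted on counts with line of origin as a block, was 3.06 (SE 0.63). Leaving out 1 pair at a time moved it between 2.25 and 3.90, the lowest value being that without the LNCaP pair. CLU was chosen on this contrast, so no test is read from its ranks, the estimate or the SE. The same holds for the estimates of the BCL2 family genes chosen with it.

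In these units CLU passed from a small to a large share of the RNA of the 10 genes. It made up 1.86%, 7.12% and 4.80% of their summed scaled FPKM in LNCaP, VCaP and LAPC4, and 29.4%, 16.7% and 31.5% in their resistant counterparts. In LNCaP-abl and LAPC4-CR it stood above each pro-survival gene except MCL1 in LAPC4-CR, which was at 41.9 scaled FPKM.

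**Figure D1:**
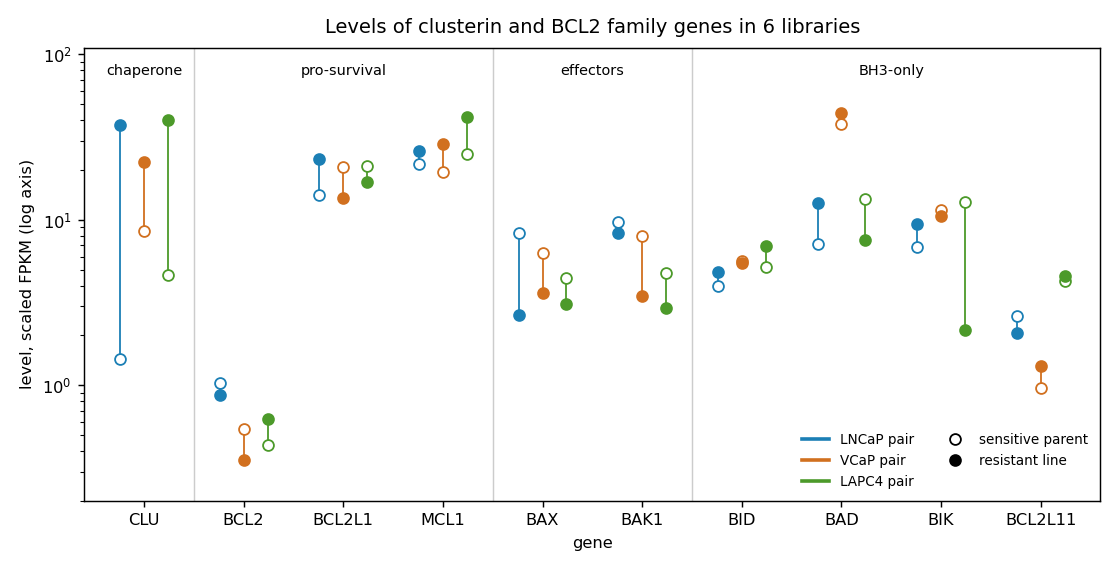
Level of each gene in scaled FPKM (log axis) in the 6 libraries, open points for sensitive parents and filled points for resistant lines, joined within a pair, 1 library per point. CLU is at 1.43 to 8.53 in the parents and at 22.3 to 39.9 in the resistant lines, and BCL2 lies at or below 1.03 in all 6.

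The 3 pro-survival genes differed widely in level and did not move as a block. MCL1 and BCL2L1 carried nearly all of their RNA, and BCL2 was at or below 1.03 scaled FPKM in every library. BCL2 (ENSG00000171791, chromosome 18, 58941559 to 59138341), the founding member of the family, was at 1.03 scaled FPKM in LNCaP, 0.542 in VCaP and 0.437 in LAPC4. In the resistant lines it was at 0.871, 0.351 and 0.626 in the same order. These values rest on 41 to 115 counts per library. Of 10 markers of other cell types, LUM aside, 8 or 9 were lower than BCL2 in each library, and their median over all libraries was 0.317 scaled FPKM. The BCL2 ratio was 0.849 in the LNCaP pair and 0.647 in the VCaP pair, with counting intervals that include 1, and 1.43 in the LAPC4 pair (1.00 to 2.08). A 2-fold difference in either direction lies outside the intervals of the LNCaP pair (0.608 to 1.19), while that of the VCaP pair (0.412 to 1.02) includes 0.5.

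MCL1 (ENSG00000143384, chromosome 1, 148813656 to 148818697), whose protein turns over quickly, was higher in all 3 resistant lines. It was at 21.9, 19.3 and 25.2 scaled FPKM in LNCaP, VCaP and LAPC4, and at 26.2, 28.6 and 41.9 in LNCaP-abl, VCaP-CR and LAPC4-CR. The ratios were 1.20 (1.10 to 1.30), 1.48 (1.36 to 1.61) and 1.67 (1.57 to 1.77). The 3 resistant libraries stood above the 3 sensitive ones on this scale, but they overlapped with the deposited FPKM and with scaling on protein-coding genes. The direction was the same in 3 of 3 pairs under each scaling. The edgeR estimate for MCL1 was 0.52 (SE 0.25).

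BCL2L1 (ENSG00000171552, chromosome 20, 29715916 to 29775453) went in different directions in different lines. It was at 14.2, 20.8 and 21.1 scaled FPKM in LNCaP, VCaP and LAPC4, and at 23.3, 13.5 and 17.0 in LNCaP-abl, VCaP-CR and LAPC4-CR. LNCaP-abl was thus the highest of the 6 libraries and VCaP-CR the lowest. The ratio was 1.64 for LNCaP (1.46 to 1.84), 0.653 for VCaP (0.587 to 0.725) and 0.804 for LAPC4 (0.739 to 0.875). BCL2L1, MCL1 and BCL2L11 each give splice forms with different effects on survival, and counts per gene do not separate them.

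The balance between the main pro-survival genes also differed within pairs. MCL1 was 1.54 times the scaled FPKM of BCL2L1 in LNCaP and 1.12 times in LNCaP-abl. The corresponding value for the VCaP pair was 0.932 in the parent and 2.11 in the resistant line. For the LAPC4 pair it was 1.19 and 2.47. BCL2L1 exceeded MCL1 in VCaP only.

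Both effector genes were lower in all 3 resistant lines. BAX (ENSG00000087088, chromosome 19, 54149884 to 54156867), which moves from the cytosol to mitochondria when activated, was at 8.28, 6.33 and 4.45 scaled FPKM in LNCaP, VCaP and LAPC4. It was at 2.66, 3.61 and 3.11 in LNCaP-abl, VCaP-CR and LAPC4-CR. The 3 resistant libraries stood below the 3 sensitive ones under each of the 3 scalings. The LNCaP pair had a ratio of 0.321 (0.244 to 0.418), a level 3.12-fold lower. The VCaP and LAPC4 ratios were 0.571 (0.455 to 0.717) and 0.699 (0.563 to 0.870). The edgeR estimate was -0.98 (SE 0.34), with -1.21 to -0.66 when 1 pair was left out.

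BAK1 (ENSG00000030110, chromosome 6, 33648302 to 33656048), whose protein already sits in the mitochondrial membrane, was at 9.73, 8.04 and 4.77 scaled FPKM in LNCaP, VCaP and LAPC4. It was at 8.31, 3.46 and 2.92 in LNCaP-abl, VCaP-CR and LAPC4-CR. The states overlapped, since LNCaP-abl was above VCaP and LAPC4. The ratio was 0.431 in the VCaP pair (0.342 to 0.542) and 0.612 in the LAPC4 pair (0.487 to 0.770), and 0.854 in the LNCaP pair with an interval that includes 1 (0.704 to 1.04). The edgeR estimate was -0.71 (SE 0.32). The pseudogene BAK1P1 had up to 74 counts in a library, and whether reads shared by the copies were counted for one of them is not given in the sources used here.

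The promoters of the 2 effectors are shown because both genes were lower in every resistant line. Bases 250 to 71 before the RefSeq start were taken from the RefSeq table for GRCh38.p14, a build different from that of the counts, and are printed 5′ to 3′ on the gene's strand. BAX is at chr19:48954625-48954804 on the plus strand, with E-box motifs (CACGTG, the same on both strands) in capitals. BAK1 is at chr6:33580347-33580526 on the minus strand, with GC boxes (GGGCGG or its complement CCGCCC) in capitals.
BAX: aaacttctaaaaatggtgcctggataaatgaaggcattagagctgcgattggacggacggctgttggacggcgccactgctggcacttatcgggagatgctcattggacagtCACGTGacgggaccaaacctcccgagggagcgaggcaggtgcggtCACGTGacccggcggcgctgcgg
BAK1: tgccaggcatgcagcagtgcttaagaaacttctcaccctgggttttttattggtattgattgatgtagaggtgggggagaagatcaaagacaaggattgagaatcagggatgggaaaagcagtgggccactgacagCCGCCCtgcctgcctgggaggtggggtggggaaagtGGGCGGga
The BAX window of 250 bases held 4 E-boxes, at 138, 93, 45 and 14 bases before the start, the last 2 of them outside the printed stretch. It held 1 GC box, 52 bases before the start. The BAK1 window held 2 GC boxes, 114 and 78 bases before the start, and 0 E-boxes. Of 34943 promoters in that table, 6.32% held an E-box and 42.5% a GC box. AGAACA, a half-site of steroid receptors that 12.4% of promoters held, was in neither window. A p53 half-site, held by 5.58% of promoters, began 73 bases before the BAK1 start, overlapping the nearer GC box, and the BAX window held 0. A match is a run of letters, not a bound site. Bases outside these windows of 250 were not searched, so a count of 0 holds for the window alone.

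The pro-survival sum (BCL2, BCL2L1 and MCL1) relative to the effector sum (BAX and BAK1) was higher in each resistant line. The BH3-only genes and other genes of the family, among them BCL2L2 and BOK, were in neither sum. The ratio of the sums does not depend on the factor per library, because both sums come from the same library. It was 2.06, 2.83 and 5.07 in LNCaP, VCaP and LAPC4, and 4.59, 6.0 and 9.87 in their resistant counterparts. Within pairs it was thus higher by 2.23, 2.12 and 1.95 times, while the starting values of the 3 parents differed by more than that. The ratio restates the changes of the single genes given above, on the contrast used to choose them. It is a description, and no background for such a ratio was computed. The effector sum contributed most in each pair, at 0.609, 0.493 and 0.654 of the parental sum, against 1.36, 1.05 and 1.27 for the pro-survival sum. LAPC4 as a parent (5.07) stood above LNCaP-abl (4.59).

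**Figure D2:**
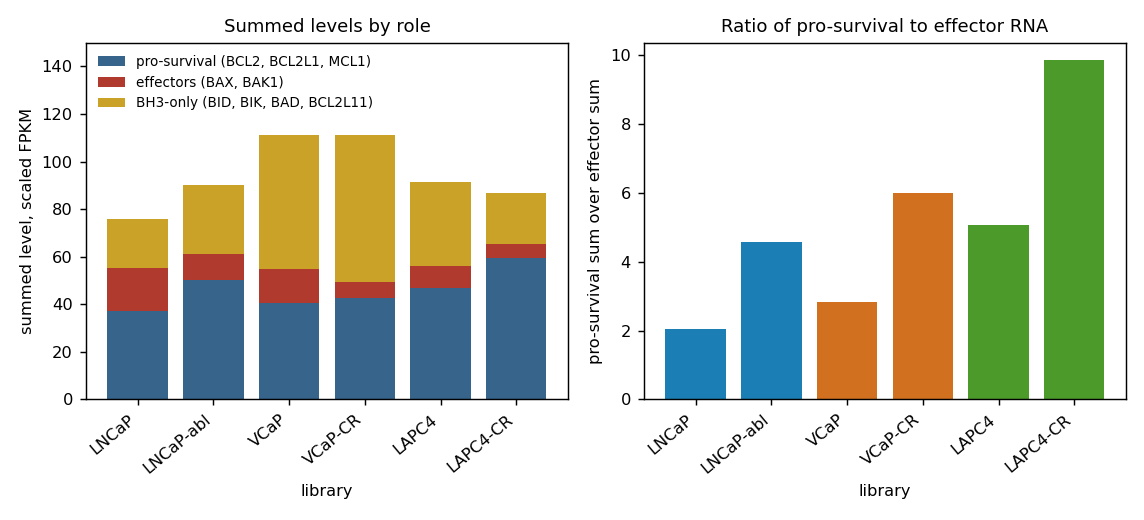
Left, summed scaled FPKM of the pro-survival, effector and BH3-only genes among the 10 in each library. Right, the pro-survival sum over the effector sum, coloured by line of origin. The ratio is higher in the resistant library of each pair, from 2.06 to 4.59, 2.83 to 6.0 and 5.07 to 9.87. It restates the changes of the single genes.

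The BH3-only genes did not share a direction, and their largest difference was in 1 line. BIK (ENSG00000100290, chromosome 22, 41836698 to 41855662), which acts largely at the endoplasmic reticulum, was at 6.82, 11.5 and 12.9 scaled FPKM in LNCaP, VCaP and LAPC4. It was at 9.40 and 10.6 in LNCaP-abl and VCaP-CR, but at 2.17 in LAPC4-CR. The LAPC4 ratio was 0.168 (0.12 to 0.232), a level 5.94-fold lower, from 163 counts in LAPC4 to 50 in the deeper LAPC4-CR library. In the LNCaP pair (1.38, 0.994 to 1.92) and the VCaP pair (0.922, 0.719 to 1.19) the intervals include 1. The edgeR estimate was -0.69 (SE 0.62), and 0.18 without the LAPC4 pair.

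BAD (ENSG00000002330, chromosome 11, 63793878 to 63808752), which phosphorylation by survival kinases inactivates, was the most abundant of the BH3-only genes followed here in every library. Its lead was widest in VCaP and VCaP-CR. BAD was at 7.18, 38.1 and 13.3 scaled FPKM in LNCaP, VCaP and LAPC4, and at 12.6, 44.4 and 7.55 in LNCaP-abl, VCaP-CR and LAPC4-CR. The ratio was 1.76 for LNCaP (1.40 to 2.21), 1.16 for VCaP (1.06 to 1.28) and 0.569 for LAPC4 (0.484 to 0.668). BAD overlaps the gene GPR137, which had up to 575 counts in a library, and reads of the 2 genes may not be separable.

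The ratios of BID and BCL2L11 lay between 0.787 and 1.37 in all 3 pairs. BID (ENSG00000015475, chromosome 22, 16596906 to 16637536), which caspase-8 cleaves to link death receptors to mitochondria, was at 4.01 to 5.64 scaled FPKM in the sensitive and 4.86 to 6.93 in the resistant lines. Its ratio was 1.34 in the LAPC4 pair (1.17 to 1.53), and the intervals of the LNCaP and VCaP pairs include 1. The sign of the small VCaP change differed with the deposited FPKM (-0.04 scaled, 0.01 as deposited).

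BCL2L11 (ENSG00000153094, chromosome 2, 111593426 to 111641058), whose protein BIM can bind all pro-survival members, was at 2.61, 0.958 and 4.29 scaled FPKM in LNCaP, VCaP and LAPC4. It was at 2.05, 1.31 and 4.58 in LNCaP-abl, VCaP-CR and LAPC4-CR. Its ratio was 0.787 for LNCaP (0.632 to 0.980), 1.37 for VCaP (1.02 to 1.86) and 1.07 for LAPC4 (0.946 to 1.21). The change in the LAPC4 pair turned sign when libraries were scaled on protein-coding genes (0.08 to -0.04).

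**Figure D3:**
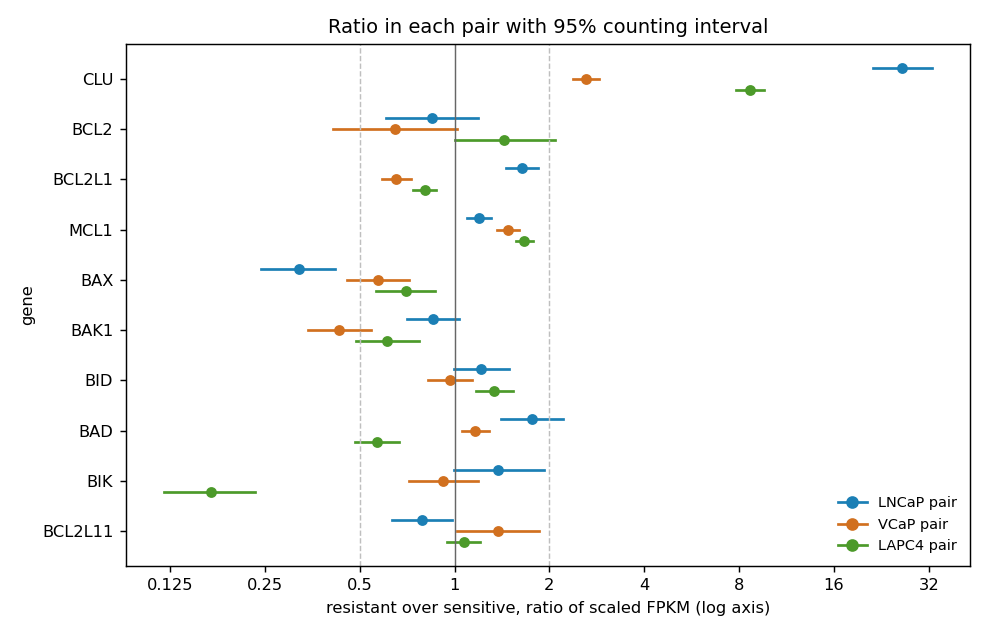
Ratio of resistant over sensitive scaled FPKM for each gene and pair (log axis, points) with its 95% counting interval (lines), dashed lines at 0.5 and 2. CLU lies at 2.61 to 26.2, and the values under 0.5 are BAX in the LNCaP pair (0.321), BAK1 in the VCaP pair (0.431) and BIK in the LAPC4 pair (0.168).

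Set against all tested genes, the 9 genes that passed the filter gave the following counts. In each pair 1 gene, CLU, was at least 2-fold higher and 1 was at least 2-fold lower. The share of all 17431 tested genes at least 2-fold higher was 6.72% for LNCaP, 2.58% for VCaP and 5.78% for LAPC4. The share at least 2-fold lower was 7.88%, 2.38% and 6.84%. Among the 11343 protein-coding genes tested, a class to which all 10 genes belong, these shares were 8.15%, 2.18% and 7.15% for higher and 3.69%, 1.9% and 4.14% for lower. The gene past that fold was BAX in the LNCaP pair, BAK1 in the VCaP pair and BIK in the LAPC4 pair, a different one each time. CLU was among the 11 genes at least 2-fold higher in all 3 pairs (0.0631% of tested and 0.097% of protein-coding genes). It had been chosen as higher in all 3 resistant lines, so its place among them follows in part from that choice. Of the 9 genes 0 were at least 2-fold lower in all 3 (0.184% and 0.0793%).

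Of the 9 genes, 2 were higher in all 3 pairs (CLU and MCL1; 16.4% of tested and 21.0% of protein-coding genes) and 2 lower in all 3 (BAX and BAK1; 17.0% and 11.7%). CLU and MCL1 were also those whose resistant libraries all stood above the sensitive ones (3.9% and 4.95%), and BAX was the 1 whose resistant libraries all stood below (4.08% and 1.96%). The median change of the 9 genes was 0.25 for LNCaP, -0.04 for VCaP and -0.30 for LAPC4, beside -0.01, -0.01 and 0.00 for all tested genes and 0.12, -0.00 and 0.08 for protein-coding genes. Because the genes were chosen on this contrast, nothing is read from these counts. With edgeR, 0 of 17431 genes (0.0%) differed between the states at an adjusted p under 5%, with 864 higher and 693 lower at an unadjusted p under 0.05. DESeq2 called 93 higher and 64 lower.

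Differences between lines of origin were not used to choose the genes and were tested, with state as a covariate and 2 libraries per line. BAD and BCL2L11 differed, 2 of the 9 genes, where 12.0% of all 17431 tested genes did. For BAD the F test over the 3 lines gave an edgeR adjusted p of 0.0323. Its level was 41.3 ± 4.44 scaled FPKM in the VCaP lines, 9.90 ± 3.85 in the LNCaP lines and 10.4 ± 4.05 in the LAPC4 lines (SD, n = 2 libraries each). On the log2 scale LNCaP minus VCaP was -2.09 (SE 0.45, edgeR adjusted p 0.0467), and VCaP minus LAPC4 was 1.97 (SE 0.45, edgeR adjusted p 0.0372). Both VCaP libraries were above the other 4. LNCaP minus LAPC4 was -0.12 (SE 0.45, edgeR adjusted p 0.922). With protein-coding genes alone in the fit, the LNCaP minus VCaP difference had an edgeR adjusted p of 0.0566.

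For BCL2L11 the F test gave an edgeR adjusted p of 0.0402, and here the VCaP lines were the lowest. Its level was 1.14 ± 0.251 scaled FPKM in the VCaP lines, 2.33 ± 0.393 in the LNCaP lines and 4.44 ± 0.207 in the LAPC4 lines (SD, n = 2 libraries each). VCaP minus LAPC4 was -1.97 (SE 0.38, edgeR adjusted p 0.0238). The LNCaP lines lay between and differed from neither beyond the threshold (LNCaP minus VCaP 1.02, SE 0.38, edgeR adjusted p 0.152; LNCaP minus LAPC4 -0.95, SE 0.37, edgeR adjusted p 0.231). The F test of BCL2L11 missed the threshold with limma (adjusted p 0.0672) and with protein-coding genes alone (edgeR adjusted p 0.0595). It also missed without the VCaP pair (edgeR adjusted p 0.360) and without the LAPC4 pair (edgeR adjusted p 0.135), fits that compare only the 2 lines left.

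The background shares of the pairwise tests were 5.82% for LNCaP minus VCaP, 3.14% for LNCaP minus LAPC4 and 11.4% for VCaP minus LAPC4. For the other 7 genes the F test gave edgeR adjusted p values from 0.134 for BAK1 to 0.937 for BCL2L1. The CLU value was 0.622. State was a covariate in this fit, and the CLU change between states was 3.99, 1.29 and 2.86 on the log2 scale in the LNCaP, VCaP and LAPC4 pairs. BAK1 was highest in both LNCaP libraries, with LNCaP minus LAPC4 at 1.26 (SE 0.39, edgeR adjusted p 0.148). A p above the threshold with 2 libraries a line does not show that the lines had the same level. BAD made up 67.9% and 71.9% of the BH3-only sum in VCaP and VCaP-CR, and 34.8% to 43.6% in the other 4 libraries.

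**Figure D4:**
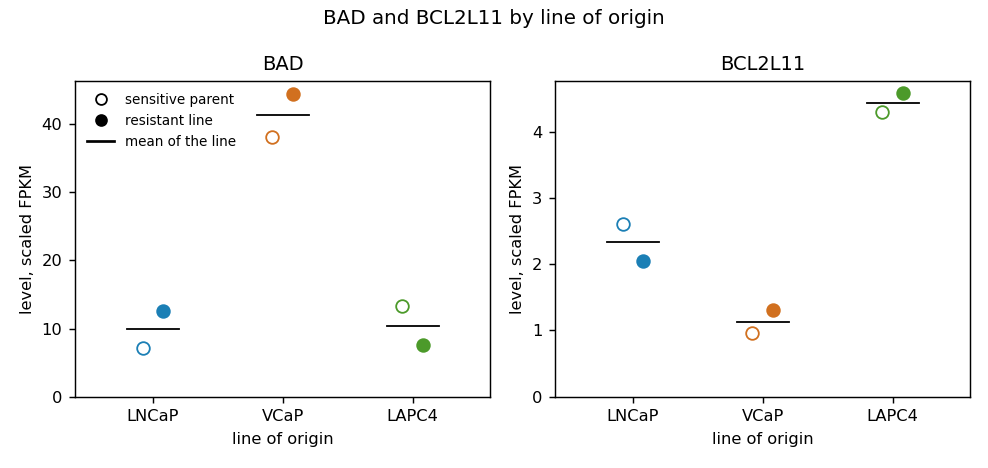
BAD (left) and BCL2L11 (right) by line of origin, in scaled FPKM, open points for sensitive parents, filled points for resistant lines and a bar at the mean of the 2 libraries. Both VCaP libraries are the highest for BAD (38.1 and 44.4) and the lowest for BCL2L11 (0.958 and 1.31).

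Other genes of the pathway were read from lists chosen by function. Over 6 lists 62 genes were tested, and 0 of them differed between the states with edgeR or DESeq2 at 5%, so the lists are described by counts and medians. At an unadjusted p under 0.05 edgeR gave 7 of the 62 as higher and 1 as lower. Of all tested genes 4.96% were higher and 3.98% lower at that level.

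Of 15 other BCL2 family genes, 10 were tested. The median change was -0.08, 0.04 and 0.29 by pair, in the order LNCaP, VCaP, LAPC4 used for all lists. In the same order 0, 0 and 1 genes were at least 2-fold higher and 2, 1 and 0 lower on the log2(scaled FPKM + 1) scale. Because these genes are at low levels, some ratios passed 2-fold where the change did not, among them BMF in the LNCaP pair (2.36) and BOK in the LAPC4 pair (2.15). BBC3, which encodes the p53-induced BH3-only protein PUMA, was lower in all 3 resistant lines. It was at 1.83, 4.41 and 4.71 scaled FPKM in LNCaP, VCaP and LAPC4, and at 0.581, 1.18 and 3.19 in their resistant counterparts. The edgeR estimate was -1.33 (SE 0.40, adjusted p 0.526). BMF, a BH3-only gene, and BCLAF1, which encodes a nuclear BCL2-associated factor, were higher in 3 of 3 pairs. Their mean log2 changes were 0.42 ± 0.49 and 0.52 ± 0.35 (SD, n = 3 pairs). BCL2L2 was also higher each time, with ratios of 1.23, 1.32 and 1.29 by pair and counting intervals above 1. Of the 10 genes, 3 were higher and 2 lower in all 3 pairs, beside 16.4% and 17.0% of all tested genes. BNIP3L, BOK and BCL2L12 differed between lines of origin (3 of 10, beside 12.0% of all tested genes). BNIP3L, a mitophagy receptor, was at 0.230 and 0.326 scaled FPKM in the VCaP lines and at 11.5 to 17.4 in the other 4 libraries (F test, edgeR adjusted p 0.00204).

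Among 14 tested genes of the apoptosome and caspases, of 15 listed, 1 was at least 2-fold higher and 1 lower in the LNCaP pair and 0 in the other pairs on the log2(scaled FPKM + 1) scale. The ratios of APAF1 (2.04) and CASP8 (2.08) in the LAPC4 pair passed 2-fold without the pseudocount. The medians were 0.06, -0.11 and 0.20. APAF1, the scaffold on which caspase-9 is activated, was higher in 3 of 3 pairs by 0.24, 0.50 and 0.87 on the log2 scale (edgeR estimate 0.78, SE 0.29, adjusted p 0.536). APAF1, CASP2, CASP6 and VDAC1 differed between lines of origin (4 of 14, beside 12.0% of all tested genes). CASP2, an initiator caspase, was at 0.338 and 0.206 scaled FPKM in LAPC4 and LAPC4-CR and at 4.15 to 6.67 in the other 4 libraries (edgeR adjusted p 0.00383).

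Of 7 inhibitor of apoptosis genes, 5 were tested, and their medians were 0.43, 0.37 and 0.22. The medians of all protein-coding genes tested were 0.12, -0.00 and 0.08. XIAP, which blocks caspases directly, was at 9.92, 5.71 and 7.28 scaled FPKM in LNCaP, VCaP and LAPC4 and at 15.0, 7.65 and 12.8 in their resistant counterparts. BIRC6, a giant ubiquitin ligase of this family, was at 9.42, 12.1 and 6.16 in the parents and 20.2, 19.9 and 10.6 in the resistant lines. Both were higher in 3 of 3 pairs. The edgeR estimates were 0.61 (SE 0.24, adjusted p 0.548) for XIAP and 0.87 (SE 0.25, adjusted p 0.526) for BIRC6. These were the 2 genes of the 5 at an unadjusted p under 0.05, a level at which 4.96% of all tested genes were higher.

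Of 11 tested genes of the death receptor pathway, 7 differed between lines of origin by the F test, against 12.0% of all genes. TNFRSF1A, the main TNF receptor, was at 0.426 and 0.324 scaled FPKM in the VCaP lines and at 4.63 to 8.74 in the other 4 libraries (edgeR adjusted p 0.00618). TNFRSF10D, a decoy receptor for TRAIL, was at 0.0567 and 0.175 in the VCaP lines and at 3.54 to 14.4 elsewhere (edgeR adjusted p 0.00475). TNFSF10, which encodes TRAIL itself, was at 35.3 scaled FPKM in LAPC4 and 9.64 in LAPC4-CR, and at 5.29 or less in the other 4. Between states the medians were 0.23, -0.11 and 0.04. FAS was higher in LNCaP-abl (8.0 against 1.13 scaled FPKM) and lower in VCaP-CR (5.52 against 16.5).

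Of 10 receptors and regulators of clusterin, 7 were tested, with medians of -0.25, -0.08 and -0.12. HSF1, a heat shock transcription factor known to act on the CLU promoter, was higher in LNCaP-abl by 0.67 on the log2 scale and lower in VCaP-CR and LAPC4-CR, with changes of -0.62 and -0.42. It was named after its values were seen. XRCC6, which encodes Ku70, a binding partner of nuclear clusterin and of BAX, was at 22.5 scaled FPKM in LAPC4 and 57.1 in LAPC4-CR, and lower in LNCaP-abl than in LNCaP. VLDLR, a lipoprotein receptor that binds clusterin, differed between lines (edgeR adjusted p 0.0328), with 14.4 and 12.9 scaled FPKM in the VCaP lines and 5.52 or less in the others. Of the 7 genes 0 were higher and 0 lower in all 3 pairs, where 16.4% and 17.0% of all tested genes were.

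Heat shock chaperones had the highest median of these lists in the LAPC4 pair. Of 15 tested genes, 4, 2 and 5 were at least 2-fold higher by pair and 0 were at least 2-fold lower, beside 6.72%, 2.58% and 5.78% of all tested genes higher by that much. The medians were 0.15, 0.23 and 0.85. In the LAPC4 pair all 15 were higher, where the median change was 0.00 for all tested genes and 0.08 for protein-coding genes. In all 3 pairs 6 of the 15 were higher, beside 16.4% of all tested and 21.0% of protein-coding genes. DNAJB1, a co-chaperone of HSP70, was at 17.3, 18.6 and 25.8 scaled FPKM in LNCaP, VCaP and LAPC4 and at 36.8, 26.8 and 62.5 in their resistant counterparts (edgeR estimate 0.97, SE 0.26, adjusted p 0.526). HSPB1, the small heat shock protein HSP27, was at 35.6, 0.737 and 37.6 in the parents and 134, 0.947 and 66.0 in the resistant lines. It was near 0 in both VCaP libraries and differed between lines of origin (edgeR adjusted p 0.00293). HSPA1B was higher in 3 of 3 pairs, but HSPA1A and HSPA1B are near-identical and their separate counts are uncertain. At an unadjusted p under 0.05, 4 of the 15 were higher and 0 lower, beside 4.96% and 3.98% of all tested genes. At an adjusted p under 5% edgeR called 0 of the 15.

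**Figure D5:**
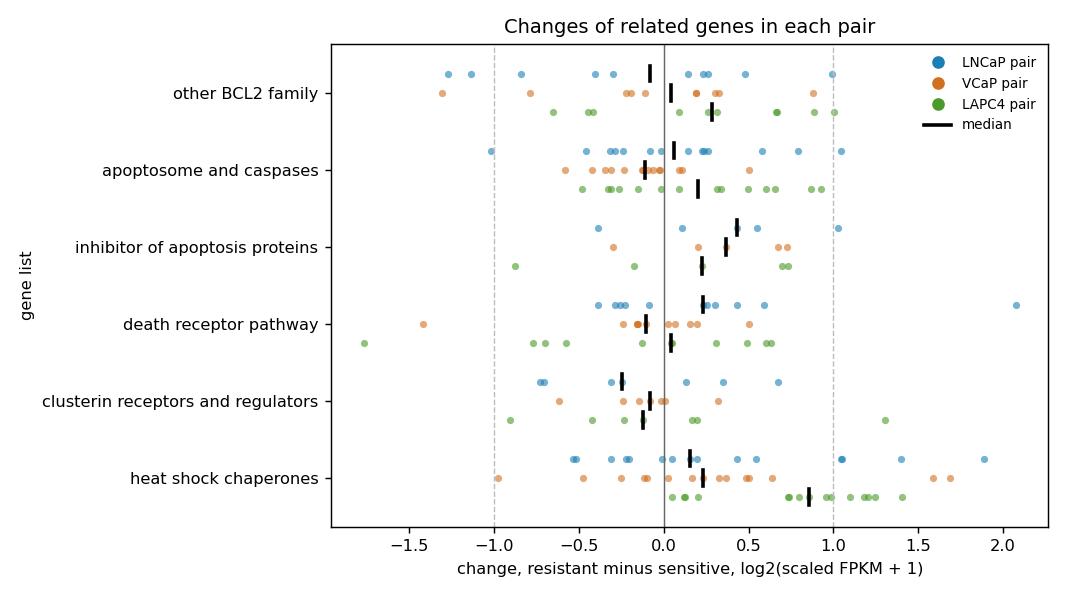
Change of each tested gene, resistant minus sensitive on the log2(scaled FPKM + 1) scale, by list and pair, with black bars at the medians and dashed lines at changes of -1 and 1. The heat shock chaperones of the LAPC4 pair have the highest median, 0.85, and all 15 lie above 0. The median of all tested genes in that pair is 0.00.

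The genes whose levels followed CLU most closely over the 6 libraries were sought among 7288 protein-coding genes that varied by at least 2-fold. Pearson's r of log2(scaled FPKM + 1) was 0.994 for ARHGEF3, which encodes an exchange factor for RhoA, 0.967 for PREX1, an exchange factor for Rac, 0.959 for TGOLN2, a protein of the trans-Golgi network, 0.959 for SPTAN1, an alpha spectrin, and 0.955 for NBPF10. In all, 34 of the 7288 genes had r of 0.9 or more. ARHGEF3 was at 0.501, 2.27 and 1.39 scaled FPKM in LNCaP, VCaP and LAPC4, and at 5.63, 4.34 and 7.52 in their resistant counterparts. PREX1 was at 0.318, 3.08 and 1.60 in the parents and at 22.9, 5.23 and 20.9 in the resistant lines. NBPF10 belongs to a family of near-identical copies and its counts are uncertain. The 6 points share lines and states, and the genes were chosen for their likeness, so r is a description.

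The genes most like BCL2 were PRMT6 (r 0.985), FEM1A (0.982), BYSL (0.978), FYCO1 (0.974) and TUBGCP3 (0.974), and 117 of the 7288 genes had r of 0.9 or more. All 5 were highest in the 2 LNCaP libraries, as BCL2 was, and lower in VCaP-CR than in VCaP. PRMT6, an arginine methyltransferase, was at 26.8 and 21.6 scaled FPKM in LNCaP and LNCaP-abl and at 6.33 to 13.5 in the other 4. The low counts of BCL2 limit the precision of this ranking.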

How the data were processed

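The data were 6 tables, 1 per cell line and library. Per the labels' protocols, RNA was purified with RNeasy columns and libraries were made with the SOLiD Total RNA-Seq kit. Per the submitters' processing notes, HTSeq and the hg18 build were used. The sources used here give no aligner, annotation, strand setting or handling of reads matching several places. Per the file headers, each table holds a count per gene, with whole numbers, and FPKM, which the authors scaled by gene length and total count. All FPKM values above 0 could be rebuilt from the deposited counts within 1%. Columns of samples not in this series numbered 0.

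Entries sharing a name were summed (345 of 47032 names). The 1357 named small RNA and mitochondrial genes were left out. FPKM was scaled per library by median-of-ratios factors (0.863 to 1.08), taken from the 12519 genes that reached 1 FPKM in each library. A pseudocount of 1 was used on the log2 scale, which understates changes of low genes. The 17431 genes averaging 1 scaled FPKM or more were tested, 11343 of them protein-coding.

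Groups follow the labels. Line names pair each resistant line with its parent, and over protein-coding genes the resistant library correlated best with its own parent (r 0.875 for LNCaP, 0.953 for VCaP and 0.900 for LAPC4, against 0.789, 0.807 and 0.811 for the next library). Separate cultures are not described in the labels, so p-values measure the spread between these libraries. The counts were tested with edgeR 4.0.16 (quasi-likelihood, TMM, line and state as terms, R 4.3.3), with Benjamini-Hochberg adjustment over all tested genes and a threshold of 5%. DESeq2 1.42.0, limma 3.58.1, other scalings, filters and pseudocounts, and each pair left out, were alternatives, and the closing section gives their effect. The SE of an edgeR estimate was derived from the F statistic, as the absolute estimate over the square root of F. For the genes chosen on the contrast of states, no test is read from it. The scripts were tested on simulated data. Intervals of counts are exact 95% Poisson intervals, and those of ratios come from the conditional binomial. PCR reads without molecular identifiers are not independent molecules.

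The 10 genes and the lists were chosen with earlier results of these data known. Named genes are all 10 genes, up to 3 genes per other list with the largest absolute mean change and those at least 2-fold changed the same way in 2 pairs, the 5 protein-coding genes most like CLU and the 5 most like BCL2, and genes a result turns on. Other listed genes named for a difference between lines of origin were chosen after their values were seen. Promoters came from RefSeq, and 7 of the 10 genes had an entry.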

Additional observations from a re-analysis of the deposited data

Results flagged for a closer look

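Several genes went in opposite directions in different lines, with 1 library per state and line. The difference between lines was not tested. It is given as the change in the first pair minus that in the second, on the log2(scaled FPKM + 1) scale, and for the BCL2 family genes the 95% counting intervals of the 2 ratios excluded 1 in opposite directions.

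BCL2L1 was higher in LNCaP-abl and lower in VCaP-CR and LAPC4-CR, with differences of 1.26 for LNCaP minus VCaP and 0.97 for LNCaP minus LAPC4. BCL2L11 was lower in LNCaP-abl and higher in VCaP-CR, with a difference of -0.48 for LNCaP minus VCaP, the smallest of these. BAD was higher in LNCaP-abl and VCaP-CR and lower in LAPC4-CR, with differences of 1.48 for LNCaP minus LAPC4 and 0.95 for VCaP minus LAPC4. The level of BAD may include reads of the overlapping gene GPR137.

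Among the other listed genes, 2 had changes of at least 1 on this scale in both directions. BOK, with ratios of 0.377 in the LNCaP pair and 2.15 in the LAPC4 pair, missed this (changes of -1.14 and 0.66) because of the pseudocount. PMAIP1, which encodes the BH3-only protein NOXA, was lower in LNCaP-abl (3.19 against 9.14 scaled FPKM) and higher in LAPC4-CR (3.44 against 1.22), a difference of -2.28. FAS was higher in LNCaP-abl and lower in VCaP-CR, a difference of 3.50.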

How the results depend on the processing

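The edgeR estimates over the pairs stayed within the spread between pairs in 88 of 88 values. This is a weak check, because all settings reuse the same libraries and the pairs differ widely. The estimates of CLU, MCL1, BID, BAX and BAK1 kept their sign throughout. Those of BAD (-0.29 to 0.52), BCL2L1 (-0.46 to 0.20), BCL2L11 (-0.12 to 0.27) and BIK (-1.31 to 0.18) turned sign with 1 pair left out. The change in each pair stayed within the spread in 109 of 120 values, and 209 of 210 pairwise differences between lines kept their side of the threshold, BAD being the exception. The F test over lines was less stable. With the main fit included, it passed the threshold in 10 of 11 settings for BAD and in 6 of 10 for BCL2L11. The counts over all genes moved more. The 0 higher and 0 lower genes between states became 93 and 64 with DESeq2 and 67 and 52 without a filter, and 0 to 53 and 1 to 36 when 1 pair was left out, both highest without the LAPC4 pair. A fit with no replicate block gave 0 and 0. The 2097 genes differing between lines became 3981 with DESeq2, 4782 without a filter, 1103 with a filter at 5 scaled FPKM and 1292 with protein-coding genes alone, and 490 (without the VCaP pair) to 3145 (without the LNCaP pair). The genes at least 2-fold higher and lower, 1171 and 1373 (LNCaP), 449 and 415 (VCaP), 1008 and 1193 (LAPC4), became 397 and 493, 142 and 99, 300 and 496 with a pseudocount of 5, and 606 and 774, 223 and 181, 574 and 721 with a filter at 5. A pseudocount of 0.25 gave 792 and 696 in the VCaP pair and 1555 higher in the LAPC4 pair. Protein-coding genes alone gave 418 lower (LNCaP), 247 and 215 (VCaP) and 470 lower (LAPC4). The 1 family gene at least 2-fold lower became 0 in the LNCaP pair with a pseudocount of 5 (BAX), and 0 in the VCaP pair with a pseudocount of 5 and with the deposited FPKM (BAK1). Scaling on protein-coding genes was added after seeing the data. The causes were not tested. Low counts limit BCL2, with 41 to 115 a library, and BIK.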
